A study of Homo sapiens with 12 samples.

Results

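The retinoblastoma family and its E2F partners are described here across 12 expression arrays of MDA-MB-231, a breast cancer cell line without the estrogen receptor. The members are 10 genes taken by symbol: the pocket protein genes RB1, RBL1 and RBL2, the E2F genes E2F1, E2F2, E2F3, E2F4, E2F7 and E2F8, and TFDP1. They were covered by 12 probes, RBL1 and TFDP1 by a pair each, out of 18665 genes with a probe of a single symbol. The labels give 3 Illumina BeadChip arrays each to cells transfected with cyclin D1 siRNA or CDK4/6 siRNA, to cells without siRNA, and to cells with a non-targeting siRNA pool. Oligonucleotides were used at 40 nM by the study's general protocol, which does not name CDK4/6, and RNA was taken 20 h after transfection by its legends. All arrays come from 1 cell line, and the labels do not say whether replicates were separate cultures. The legends of the array panels speak of 3 or more independent experiments for their plots without naming arrays. If some arrays share a culture, p-values measure in part a technical spread. The deposited values are linear probe intensities whose distribution was nearly equal between arrays as deposited, with the background left in. The number of arrays limits the precision.

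Pocket proteins bind E2F transcription factors and hold back the genes that carry cells from G1 into S phase. Cyclin D1 with CDK4 or CDK6 phosphorylates RB, which releases the activator E2Fs (E2F1, E2F2 and E2F3). E2F4 works mostly as a repressor together with the RB relatives p107 (RBL1) and p130 (RBL2), while E2F7 and E2F8 are atypical repressors that need neither a pocket protein nor a DP partner. TFDP1 encodes DP1, which pairs with the other E2Fs on DNA.

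The genes that the siRNAs target go against several labels, so each group below means the arrays so labelled. Whether every label belongs to its column of values could not be settled here. As the targeted genes did not follow the labels, the fold changes by label and the counts of 0 below compare labels and not treatments. CCND1 was split by a 2.68-fold gap into 6 arrays at 2703 to 5100 and 6 arrays at 13659 to 15393. CDK4 was at 275 to 409 on 3 arrays and at 2167 to 2771 on the other 9, and CDK6 was low on the same 3 arrays. In the order of deposit these levels came in runs of 3 neighbouring samples, each run holding 3 different labels: first CCND1, CDK4 and CDK6 all high, then the 3 lowest CCND1 values, then low CDK4 and CDK6, and last CCND1 at 4311 to 5100.1. By label, the log2 ratio over non-targeting siRNA was 0.15 (SE 0.79) for CCND1 with cyclin D1 siRNA and 0.28 (SE 0.97) for CDK4 with CDK4/6 siRNA. No array was moved to another group. Markers listed as high in this line (VIM, CD44, AXL, CAV1 and S100A4) were above background on all 12 arrays. Of 6 genes listed as low in it, PGR was above background on 0 arrays, ESR1 on 2 and CDH1 on 8, whereas KRT19, ERBB3 and CDKN2A, the last reported as deleted in this line, were above it on all 12, CDKN2A at 255 to 307. The leukocyte markers PTPRC and CD3E were above background on 0 and 1 arrays, but CD14 and CD68 on all 12. Of the fibroblast markers 4 of 5 and of the endothelial markers 1 of 4 were above background on every array, among them COL1A2 at 4100 to 5064. Their part in the results below was not tested.

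Of the 10 members, 6 were above background on all 12 arrays (RB1, RBL1, E2F1, E2F2, E2F4 and TFDP1) and 4 were above it on 0 arrays (RBL2, E2F3, E2F7 and E2F8). Background is taken here as an intensity of 44.2, the level that values around the most frequent intensity of 39.4 would pass with a one-sided p of 0.05. RBL2 lay just under it, between 39.4 and 44.1, and the probe therefore gives no level for the RBL2 transcript. E2F3 was between 35.4 and 42.3, E2F7 between 33.5 and 38, and E2F8 between 34.1 and 40.4. A probe that is not above background does not show that the transcript is absent. By RNA, the members above background were thus RB1 and RBL1 of the pocket protein genes, E2F1 and E2F2 of the activators, E2F4 of the repressors, and TFDP1. Their proteins were not measured on these arrays.

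**Figure D1:**
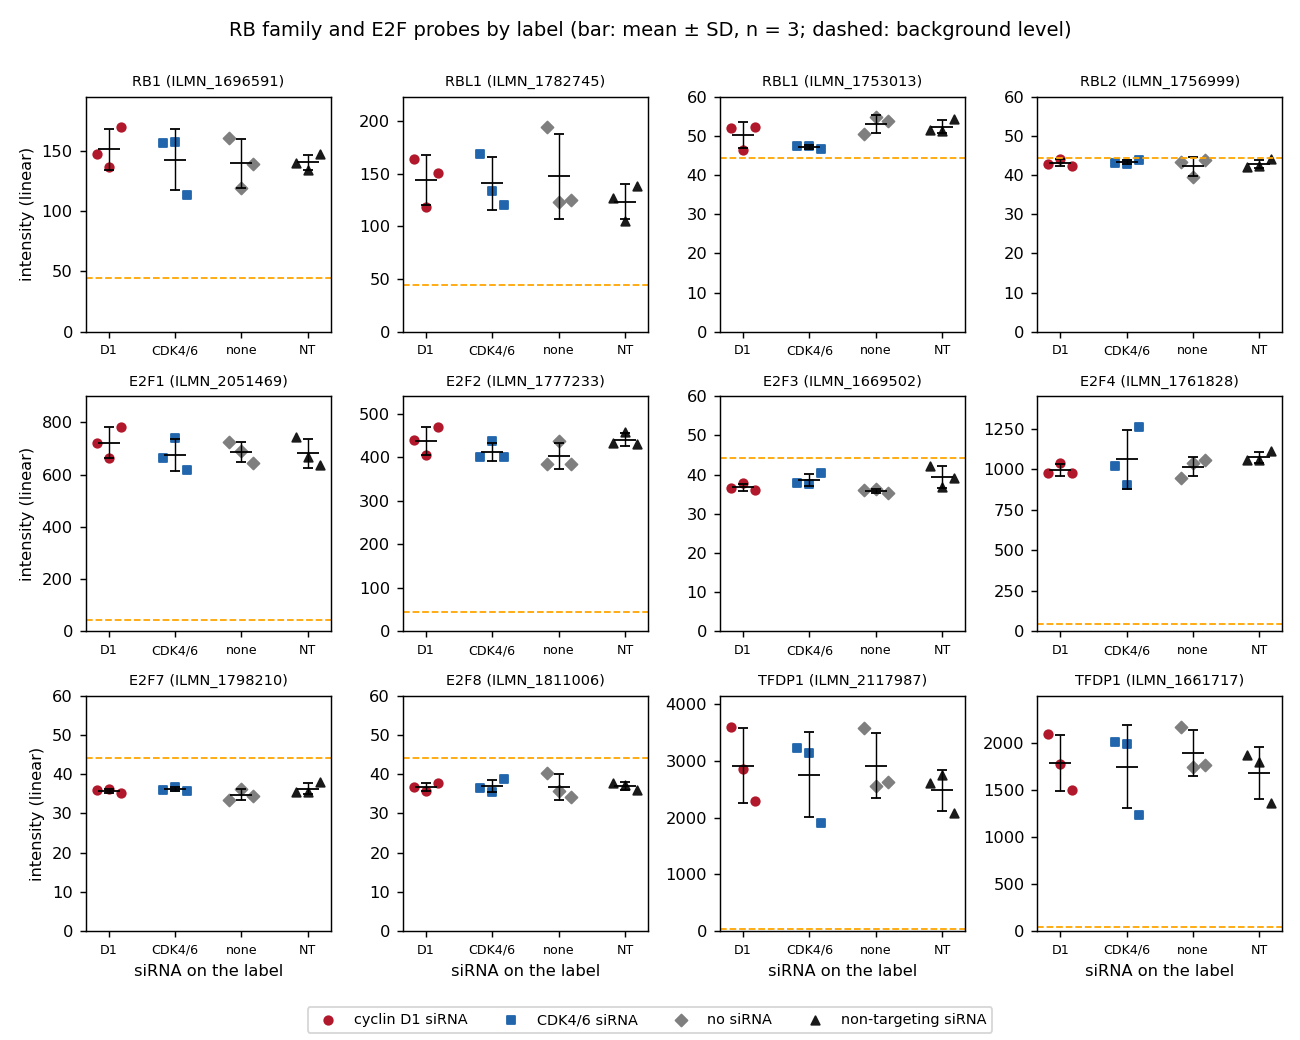
Linear intensity of the 12 member probes by the siRNA on the label (D1, cyclin D1 siRNA; none, no siRNA; NT, non-targeting siRNA). Points are arrays, bars the mean ± SD of 3 arrays, and the dashed line the background level of 44.2. RBL2, E2F3, E2F7 and E2F8 stay at or under the line, and the labels overlap for most of the other probes.

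E2F genes are known as targets of E2F factors themselves, and the promoters of several members carry the E2F motif. The motif was searched in its 4 spellings, TTTCCCGC, TTTCGCGC, TTTGCCGC and TTTGGCGC, on both strands, from 250 bases before to 50 bases after each start site in RefSeq (GRCh38.p14). It was found for 5 of the 9 members with a window (RBL1, E2F1, E2F2, E2F3 and TFDP1), and for 21 of 38 listed E2F target genes. Of all genes with a window, 3.99% held it. RB1, RBL2, E2F4 and E2F7 held none of these letters in the window, and E2F8 has no window in the table. A match is a description and no binding was measured. The stretches before the start site are shown for the 4 measured members with a match, since TFDP1 and RBL1 among them varied most between arrays and E2F1 and E2F2 least. Capitals mark the motif on either strand, and each sequence runs from 5′ to 3′ on the strand of its gene. The E2F1, E2F2 and RBL1 stretches cover the 100 bases before the start (chr20:33686386-33686485, chr1:23531234-23531333 and chr20:37095998-37096097, all minus strand), and that of TFDP1 starts 150 bases before it (chr13:113584603-113584687, plus strand).
E2F1: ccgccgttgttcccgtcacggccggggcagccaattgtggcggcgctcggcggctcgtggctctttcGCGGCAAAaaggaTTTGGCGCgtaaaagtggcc
E2F2: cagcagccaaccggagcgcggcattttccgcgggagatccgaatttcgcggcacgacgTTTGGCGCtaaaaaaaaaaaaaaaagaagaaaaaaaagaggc
RBL1: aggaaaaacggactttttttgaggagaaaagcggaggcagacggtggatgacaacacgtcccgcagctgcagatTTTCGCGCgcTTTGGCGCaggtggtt
TFDP1: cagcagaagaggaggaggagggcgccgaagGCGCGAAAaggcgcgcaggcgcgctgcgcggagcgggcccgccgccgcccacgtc
E2F1 and RBL1 held a pair of matches each within 33 bases of the start, E2F2 a match 42 bases before it and TFDP1 a match 120 bases before it.

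In deposited intensity, TFDP1 had the widest range of the members, 1.90-fold between the lowest and the highest array by its brighter probe (ILMN_2117987). Background left in these values narrows ratios most for dim probes, such as those of RBL1 and RB1. The order of the members by range therefore holds for deposited intensity only. TFDP1 was at 3606, 2854 and 2293 on the arrays labelled cyclin D1 siRNA 1 to 3, at 3237, 3141 and 1902.5 on CDK4/6 siRNA 1 to 3, at 3580.4, 2550.1 and 2622 on no siRNA 1 to 3, and at 2605, 2756 and 2079 on non-targeting siRNA 1 to 3. The 3 highest values lay on cyclin D1 siRNA 1, CDK4/6 siRNA 1 and no siRNA 1 and the 3 lowest on CDK4/6 siRNA 3, non-targeting siRNA 3 and cyclin D1 siRNA 3, so every pair of labels overlapped. The second probe (ILMN_1661717), to the same transcript, ranged 1.76-fold, from 1235 to 2174, and had its 3 highest and its 3 lowest values on the same arrays. With means of 2918 ± 659 (SD, n = 3) for cyclin D1 siRNA, 2760 ± 744 (SD, n = 3) for CDK4/6 siRNA and 2480 ± 355 (SD, n = 3) for non-targeting siRNA, the log2 fold change over non-targeting siRNA was 0.22 (SE 0.22) for cyclin D1 siRNA and 0.12 (SE 0.22) for CDK4/6 siRNA. The adjusted p values from limma were 0.9999 and 0.9998. Leaving out cyclin D1 siRNA 1 or 3 gave 0.055 or 0.38 for cyclin D1 siRNA, and leaving out CDK4/6 siRNA 1 or 3 gave -0.010 or 0.37 for CDK4/6 siRNA.

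RBL1, the gene of p107, ranged 1.84-fold by its brighter probe (ILMN_1782745). It was at 164, 118 and 150.4 on cyclin D1 siRNA 1 to 3, at 169, 133 and 120 on CDK4/6 siRNA 1 to 3, at 194, 123 and 125 on no siRNA 1 to 3, and at 127, 105 and 138 on non-targeting siRNA 1 to 3. The 3 highest values were again those of cyclin D1 siRNA 1, CDK4/6 siRNA 1 and no siRNA 1. Its log2 fold change was 0.19 (SE 0.17) for cyclin D1 siRNA and 0.16 (SE 0.17) for CDK4/6 siRNA, both over non-targeting siRNA. With the mean of both RBL1 probes these values were 0.075 and 0.027. The second RBL1 probe (ILMN_1753013), annotated to another transcript (NM_183404, against NM_002895 for the brighter probe), lay close to background at 46.4 to 54.9 and did not vary in the same way. It was at 47.5, 47.4 and 46.7 on CDK4/6 siRNA 1 to 3 and at 51.5, 51.2 and 54.3 on non-targeting siRNA 1 to 3, which do not overlap. No overlap in this direction was seen for 2.51% of all genes tested and in the other for 3.62%. The unadjusted p of this difference was 0.049 from limma and the adjusted p 0.9998.

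RB1, the gene of RB itself, was at 148, 136 and 169 on cyclin D1 siRNA 1 to 3, at 157, 157.5 and 113 on CDK4/6 siRNA 1 to 3, at 160.4, 119 and 139 on no siRNA 1 to 3, and at 140, 134 and 147 on non-targeting siRNA 1 to 3. With the background left in, its range of 1.49-fold lay just under the 1.5-fold that RBL1 and TFDP1 passed. Of all 13601 genes tested, 12.9% exceeded 1.5-fold. The extremes, cyclin D1 siRNA 3 and CDK4/6 siRNA 3, did not lie on the arrays where RBL1 and TFDP1 were highest. Over non-targeting siRNA its log2 fold change was 0.09 (SE 0.12) for cyclin D1 siRNA and 0.0086 (SE 0.12) for CDK4/6 siRNA.

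The activators E2F1 and E2F2 varied less than most members, 1.26-fold and 1.22-fold, against a median of 1.29-fold over all genes tested. E2F1 was at 722, 663 and 783 on cyclin D1 siRNA 1 to 3, at 663, 742 and 619.8 on CDK4/6 siRNA 1 to 3, at 724, 691 and 646.5 on no siRNA 1 to 3, and at 744, 667.5 and 637 on non-targeting siRNA 1 to 3. E2F2 was at 439, 406 and 469.5 on cyclin D1 siRNA 1 to 3, at 401, 436.5 and 399.5 on CDK4/6 siRNA 1 to 3, at 385, 438 and 385 on no siRNA 1 to 3, and at 433, 458.5 and 429.7 on non-targeting siRNA 1 to 3. Both genes were highest on cyclin D1 siRNA 3, as were 11.2% of all genes tested, and all labels overlapped. The log2 fold changes for cyclin D1 siRNA over non-targeting siRNA were 0.08 (SE 0.08) for E2F1, with a 95% interval from -0.11 to 0.26, and -0.0095 (SE 0.07) for E2F2, with an interval from -0.16 to 0.14.

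E2F4, the repressor measured here, was at 976, 1038 and 977.5 on cyclin D1 siRNA 1 to 3, at 1021.5, 901 and 1262 on CDK4/6 siRNA 1 to 3, at 949, 1037.5 and 1061 on no siRNA 1 to 3, and at 1055, 1056 and 1116 on non-targeting siRNA 1 to 3. All 3 arrays labelled cyclin D1 siRNA thus lay below all 3 labelled non-targeting siRNA, as they did for 3.46% of all genes tested, while 4.17% lay above. The difference was small, with means of 997 ± 35.5 (SD, n = 3) for cyclin D1 siRNA and 1076 ± 34.7 (SD, n = 3) for non-targeting siRNA, a log2 fold change of -0.11 (SE 0.10) and an adjusted p of 0.9999 from limma. E2F4 was highest on CDK4/6 siRNA 3, the array on which RB1, E2F1 and TFDP1 were lowest. Of all genes tested, 14.2% were highest on this array, the largest share of any array, and 1401 of 13601 were lowest there.

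Between the labels, 0 of the 6 members tested passed the threshold in either direction in any of the 4 comparisons (limma, adjusted p under 0.05), and of all genes tested 0% did. At an unadjusted p under 0.05 the count of members, each by its brighter probe, was also 0, against 3.04% of all genes for cyclin D1 siRNA over non-targeting siRNA, 1.82% for CDK4/6 siRNA over non-targeting siRNA, 1.39% for cyclin D1 siRNA over CDK4/6 siRNA and 1.82% for no siRNA over non-targeting siRNA. Between cyclin D1 siRNA and CDK4/6 siRNA 0 members were without overlap, against 2.02% of all genes higher and 2.47% lower. Between no siRNA and non-targeting siRNA it was also 0, against 3.64% higher and 3.01% lower. For cyclin D1 siRNA over non-targeting siRNA the median log2 fold change was 0.09 for the 6 members and 0.0032 for all genes. For CDK4/6 siRNA over non-targeting siRNA it was -0.0044 for the members and 0.0042 for all genes.

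**Figure D2:**
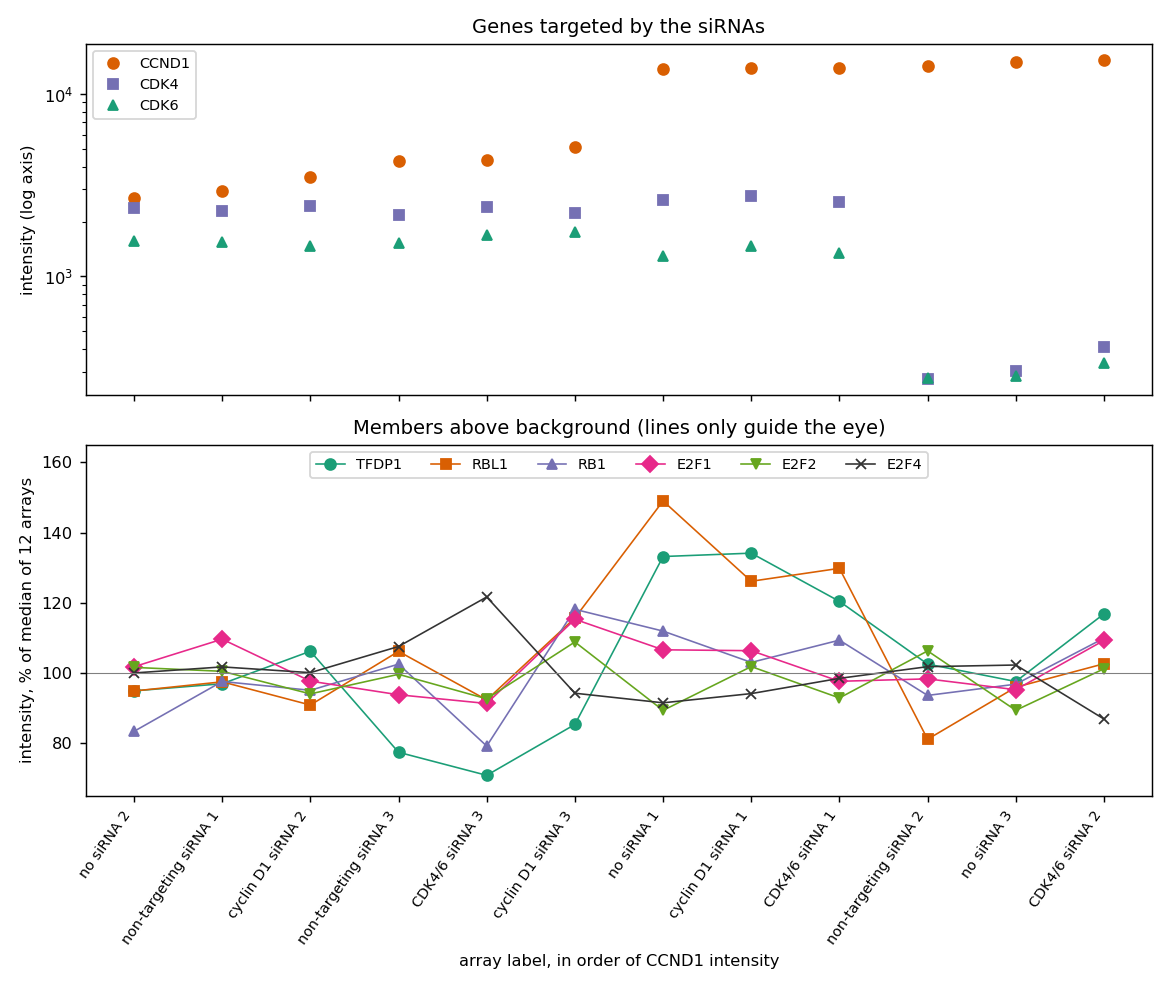
Intensity of CCND1, CDK4 and CDK6 (top, log axis) and of the 6 members above background, as a percentage of each probe's median over the 12 arrays (bottom), with the arrays in order of CCND1. TFDP1 and RBL1 have their 3 highest values on cyclin D1 siRNA 1, CDK4/6 siRNA 1 and no siRNA 1, at CCND1 of 13659 to 13952, and E2F1, E2F2 and E2F4 do not.

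How the members lay beside CCND1 and CDK4 was read array by array, since CCND1 and CDK4 each split the arrays into separate clusters, and no pooled correlation with either probe is given. The arrays were not grouped by these values for any test. In order of CCND1, TFDP1 was at 2550.1, 2605 and 2854 where CCND1 was at 2703, 2951 and 3513 (no siRNA 2, non-targeting siRNA 1 and cyclin D1 siRNA 2). It was at 2079, 1902.5 and 2293 where CCND1 was at 4311, 4361 and 5100.1 (non-targeting siRNA 3, CDK4/6 siRNA 3 and cyclin D1 siRNA 3). It was at 3580.4, 3606 and 3237 where CCND1 was at 13659, 13878 and 13952 with CDK4 at 2561 to 2771 (no siRNA 1, then cyclin D1 siRNA 1, then CDK4/6 siRNA 1). TFDP1 therefore did not follow CCND1 step by step, as the arrays with the lowest CCND1 were not those with the lowest TFDP1. Where CDK4 was at 275, 301 and 409 (non-targeting siRNA 2, no siRNA 3 and CDK4/6 siRNA 2), TFDP1 was at 2756, 2622 and 3141 and CCND1 at 14187, 14977 and 15393, the highest of all.

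In the same order of CCND1, RBL1 was at 123, 127, 118, 138, 120 and 150.4 on the first 6 arrays, at 194, 164 and 169 on the next 3, and at 105, 125 and 133 on the last 3, which are those with CDK4 at 275 to 409. Its 3 highest values thus lay on the same arrays as those of TFDP1, next to each other in this order, and its lowest lay at a low CDK4. E2F1 was at 691, 744, 663, 637, 619.8 and 783 on the first 6, at 724, 722 and 663 on the next 3, and at 667.5, 646.5 and 742 on the last 3. The highest and the lowest E2F1 were thus neighbours among the first 6. E2F2 had its highest value, 469.5, at a CCND1 of 5100.1 and its lowest, 385, at 13659. E2F4 had its highest, 1262, at a CCND1 of 4361 and its lowest, 901, at 15393, and RB1 its lowest, 113, and its highest, 169, at 4361 and 5100.1. CD14, a leukocyte marker, was at 245, 272 and 265 on cyclin D1 siRNA 1, CDK4/6 siRNA 1 and no siRNA 1, while the other 9 arrays lay at 291 to 399.5. The other leukocyte marker tested, CD68, was at 5000.3, 4626 and 4277 on these 3 arrays and at 4411 to 5143 on the others, with overlap. Summed over both, the intensity was 5246, 4898 and 4541 on these 3 arrays and 4739 to 5482 on the others, a sum that CD68 dominates. PTPRC was above background on 0 arrays. Their part in the levels of TFDP1 and RBL1 was not tested, and the share of all genes that separated these 3 arrays from the others was not counted.

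Most genes of a list of E2F targets ranged wider between the arrays than E2F1 and E2F2 did. Of 45 listed E2F target genes of the G1/S transition, 39 were tested and 32 of them ranged over 1.5-fold between arrays, against 12.9% of all genes. The median range of the list was 1.82-fold, against 1.29-fold over all genes. List and all genes were not matched for intensity, and the background left in narrows the ranges of dim genes. The list was also chosen with earlier results of these data known. CDT1, a licensing factor for replication origins, ranged 2.63-fold, from 298 on CDK4/6 siRNA 2 to 784 on CDK4/6 siRNA 1. MCM10, which helps to start replication forks, ranged 2.38-fold, and GINS2, a subunit of the replicative helicase, 2.35-fold. At the other end TOP2A, POLA2 and GINS1, all at low intensities of 44 to 89.9, ranged 1.20-fold to 1.22-fold. Of the 39 genes, 13 had their highest value on cyclin D1 siRNA 1, 4 on CDK4/6 siRNA 1 and 20 on no siRNA 1, where 9.96%, 6.47% and 7.76% of all genes had theirs. The mean log2 deviation of the list from its average over the arrays was 0.38, 0.34 and 0.42 on these 3 arrays and between -0.24 and 0.03 on the other 9. The lowest deviations, -0.24 and -0.23, lay on non-targeting siRNA 2 and no siRNA 3, with CDK4 at 275 and 301. Next came -0.20 on no siRNA 2, with CDK4 at 2361, and -0.16 on CDK4/6 siRNA 2, with CDK4 at 409. Of the 39 genes, 11 were lowest on no siRNA 2 and 10 on no siRNA 3. Another 7 were lowest on non-targeting siRNA 2 and 4 on CDK4/6 siRNA 2. Of all 13601 genes, 964, 1046, 1035 and 1034 were lowest on these arrays, in the same order. CCNE1, the gene of cyclin E1, was named after its values were seen. It had its 3 lowest values, 122.5, 108 and 112, on CDK4/6 siRNA 2, no siRNA 3 and non-targeting siRNA 2 and lay at 158 to 208 on the other 9. CDT1 also had its 3 lowest values on those arrays, whereas GINS2 was lowest on no siRNA 2, at 1305. How many genes of the list, or of all genes, had this order was not counted. By label (limma, adjusted p under 0.05), 0 of the 39 were higher and 0 lower for cyclin D1 siRNA or CDK4/6 siRNA over non-targeting siRNA. In RNA from a whole culture, fewer cells in a phase of the cycle and less RNA per cell cannot be told apart.

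**Figure D3:**
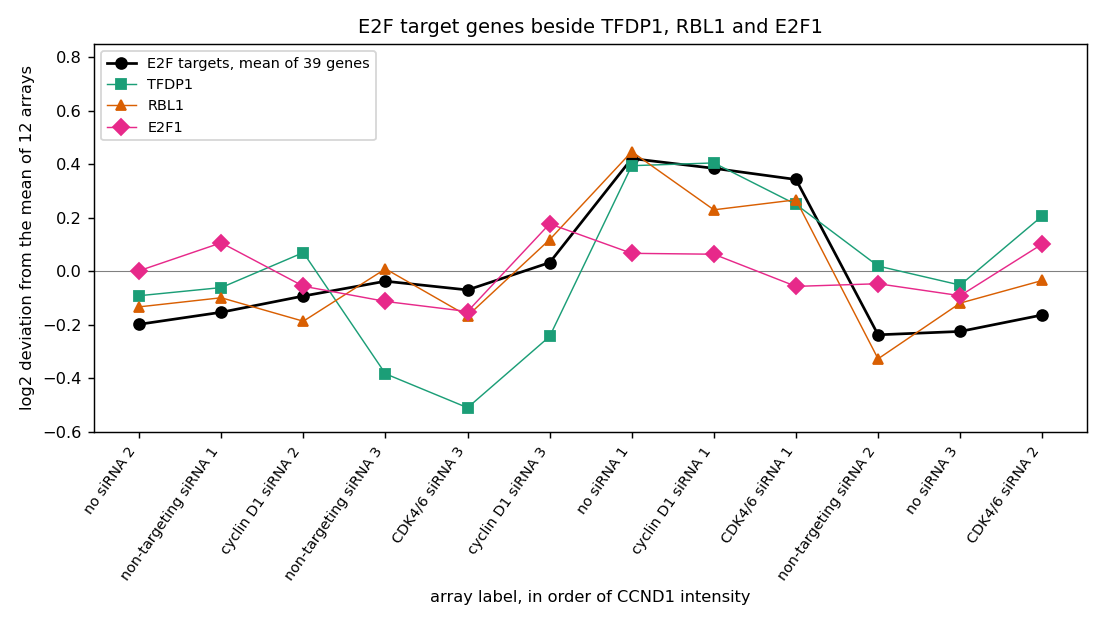
Mean log2 deviation of 39 E2F target genes from their averages over the 12 arrays, beside the deviation of TFDP1, RBL1 and E2F1 on the same background-corrected scale, with arrays in order of CCND1 (lines only join arrays). The targets stand at 0.34 to 0.42 on cyclin D1 siRNA 1, CDK4/6 siRNA 1 and no siRNA 1, where E2F1 lay between -0.06 and 0.07.

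**Figure D4:**
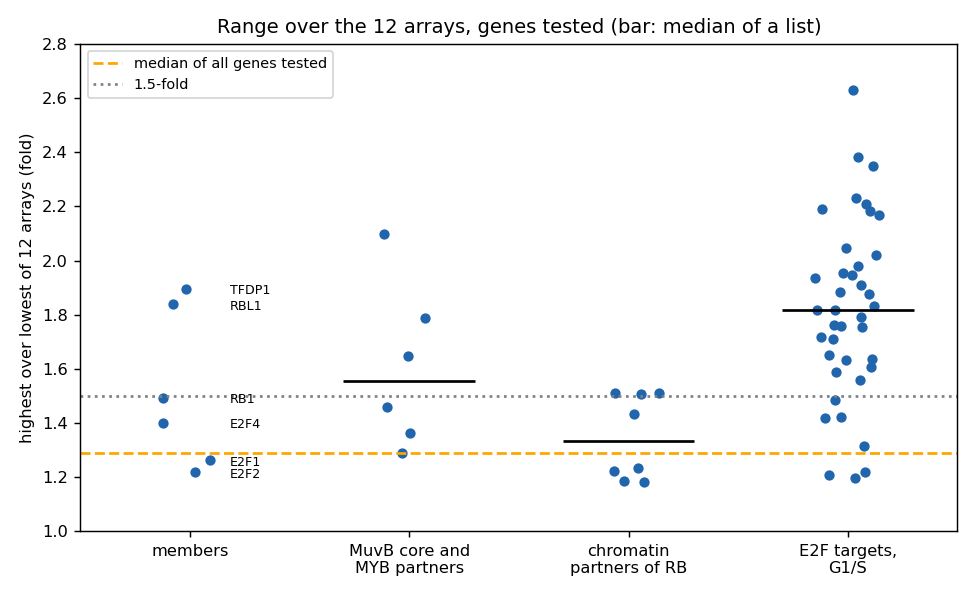
Highest over lowest deposited intensity, background left in, of the 12 arrays for the 6 members tested and the genes tested of 3 lists. Points are genes, bars list medians, and the dashed line the median of all 13601 genes. TFDP1 and RBL1 lie with most E2F targets above 1.5-fold, and E2F1 and E2F2 lie below the median of all genes.

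The genes whose pattern over the 12 arrays was most like that of RBL1 were TRIP13, an ATPase of the spindle checkpoint, TMPO, a protein of the nuclear lamina, and LRRC37A2, with Pearson correlations of 0.98, 0.96 and 0.96. Those most like TFDP1 were JRK, PRC1, a protein that cross-links microtubules of the central spindle, and GPR19, an orphan receptor, at 0.96, 0.96 and 0.95. The likeness was measured on log2 intensities over 12 arrays and is the highest among the other genes tested, and it is given as a description. These 12 arrays are the ones that CCND1 and CDK4 split into clusters, so the points are not spread evenly.

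Partners of the pocket proteins were mixed. The MuvB core joins p107 or p130 and E2F4 in the DREAM complex, which silences cell cycle genes in resting cells, and 6 of 7 listed genes of it and its partners were above background on all 12 arrays. LIN9 was at 274, 267 and 270.0 on cyclin D1 siRNA 1, CDK4/6 siRNA 1 and no siRNA 1, while the other 9 arrays lay at 166 to 188.5. LIN54, which binds DNA in this complex, was at 280.3, 289.7 and 304 on those 3 and at 169.9 to 228 on the others, so neither overlapped. These are the arrays on which TFDP1 and RBL1 were highest. The share of all genes that separated them from the others was not counted, so the lack of overlap is only a description. RBBP4, a histone-binding subunit, ranged 2.10-fold but was lowest on cyclin D1 siRNA 3, at 101, and highest on CDK4/6 siRNA 1, at 212. LIN37 was above background on 0 arrays and MYBL2, the gene of B-MYB, lay close to it at 44.8 to 57.8. By label 0 of the 6 tested passed the threshold for cyclin D1 siRNA or CDK4/6 siRNA over non-targeting siRNA. The E2F6 and TFDP2 genes, a pocket-independent repressor and a second DP partner, ranged 1.16-fold and 1.26-fold by their brighter probes. By that probe TFDP2 was highest, at 184.7, on no siRNA 2 and lowest, at 146.5, on no siRNA 3. Its second probe, to the same transcript, was highest on non-targeting siRNA 3, at 110.3, and lowest on cyclin D1 siRNA 1, at 86.1.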

How the data were processed

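RNA of 12 samples, labelled in 4 groups of 3, was hybridised to Illumina BeadChip arrays. The authors deposited linear probe intensity values for 48803 probes with an equal distribution on all arrays (sorted values within 0.5% at 99.97% of the ranks). The study's methods point to an earlier article, and the software and normalization behind the values were not given in the sources used here. A second table has 24 per-sample columns of intensity and detection p that match no label and were not used. The background level was set from the intensities used here and not from those detection p values. After normexp correction (offset 50) and quantile normalization, log2 values were computed in R 4.3.3 with limma 3.58.1, and figures were drawn with matplotlib 3.10.9. Tests ran on the 27229 probes above 44.2 on 3 or more arrays, in 1 fit over the 4 groups (lmFit and eBayes, two-sided) with Benjamini-Hochberg adjustment over these probes. Of the probes 27578 have 1 symbol in the platform annotation, 13 several and 21212 none. A gene was represented by its brightest tested probe, which gave 13601 genes. The fit was tested on simulated data. RefSeq tables of GRCh38.p14 gave the promoter windows and matched 18641 symbols.

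The members and gene lists were chosen with earlier results of these data known. Named were the members, CCND1, CDK4 and CDK6, list genes at either end of the range over arrays, and the 3 genes most like each member that ranged over 1.5-fold. CCNE1, LIN37 and CDKN1A were named after their values were seen. Alternatives changed the probe filter, background correction and level, normalization, the arrays fitted, array weights, the replicate block, the test, the probe taken per gene and the control group, or left out 1 replicate at a time.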

Additional observations from a re-analysis of the deposited data

How the results depend on the processing

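Under every alternative 0 genes and 0 members were called in the comparisons run, including the replicate block (0 genes, 0 members) and each fit that left out 1 replicate. Every alternative kept the labels as given, so none can show whether labels and columns match. The count of members above background on all 12 arrays was 6 under both other levels. After normexp correction with the offset of the main fit and quantile normalization, ranges were 1.89-fold for TFDP1 and 1.71-fold for RBL1. In deposited intensity they were 1.90-fold and 1.84-fold. The offset is added to every value and narrows the ratios of dim probes, so the corrected ranges do not show the width without background. The RBL1 log2 fold change for cyclin D1 siRNA over non-targeting siRNA was 0.19 with this offset, 0.22 without background correction and 0.25 with an offset of 16. Signs of the log2 fold changes were less stable, with every adjusted p above the threshold. With the arrays labelled no siRNA as the control, cyclin D1 siRNA gave -0.011 for RBL1, 0.12 for E2F2 and -0.0068 for TFDP1, and CDK4/6 siRNA gave -0.043 for RBL1, 0.033 for E2F2, 0.050 for E2F4 and -0.10 for TFDP1. With both control groups together, E2F2 was 0.053 for cyclin D1 siRNA and E2F4 0.0093 for CDK4/6 siRNA. These values also moved by over 1.5 times without a change of sign for other members, as with both control groups together, where cyclin D1 siRNA gave 0.091 for RBL1 and 0.11 for TFDP1 and CDK4/6 siRNA 0.059 for RBL1 and 0.011 for TFDP1. With the mean of the tested probes, RBL1 was 0.075 for cyclin D1 siRNA and 0.027 for CDK4/6 siRNA, and TFDP1 0.15 and 0.079. Without each replicate in turn, RB1 had log2 fold changes of 0.015 (lowest, without cyclin D1 siRNA replicate 3) to 0.15 for cyclin D1 siRNA, and the other members had values of 0.099 to 0.31 (without cyclin D1 siRNA replicate 2) for RBL1, 0.022 (without cyclin D1 siRNA replicate 3) to 0.14 for E2F1, -0.059 to 0.043 (without cyclin D1 siRNA replicate 2) for E2F2, -0.14 to -0.081 for E2F4 and 0.055 (without cyclin D1 siRNA replicate 1) to 0.38 for TFDP1. For CDK4/6 siRNA it ranged from -0.062 (without CDK4/6 siRNA replicate 2) to 0.15 for RB1, 0.038 (without CDK4/6 siRNA replicate 1) to 0.26 for RBL1, -0.086 to 0.045 (without non-targeting siRNA replicate 1) for E2F1, -0.13 to -0.064 for E2F2, -0.16 to 0.077 (without CDK4/6 siRNA replicate 2) for E2F4 and -0.010 (without CDK4/6 siRNA replicate 1) to 0.37 (without CDK4/6 siRNA replicate 3) for TFDP1. The cause was not tested.

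No pairing by replicate number was assumed. The sources give no shared origin for a number. Deviations of same-numbered arrays of different labels correlated at -0.24 to 0.42, over 0.1 in 10 of 18 pairs. The median of these pairs was 0.136, against -0.048 for pairs that differ in number and label. 5 of 12 arrays were closest to an array of their own number. Signal near background gives no level for the transcripts of RBL2, E2F3, E2F7 and E2F8.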

Other observations

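Among the D cyclins, their kinases and inhibitors, CDKN2D, the gene of the CDK4/6 inhibitor p19INK4D, was at 827, 838.5 and 861 on cyclin D1 siRNA 1, CDK4/6 siRNA 1 and no siRNA 1. The other 9 arrays lay at 513 to 707, and the share of all genes that separated the arrays in this way was not counted. CCND3, the gene of cyclin D3, was above background on all 12 arrays, at 5341 to 7825, with its 3 lowest values on cyclin D1 siRNA 3, non-targeting siRNA 3 and CDK4/6 siRNA 3, the same 3 arrays as for TFDP1. CCND2 lay close to background at 45.7 to 67. CDKN1A, the gene of p21, passed background on 2 arrays and reached 44.8.

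Among the chromatin partners of RB, SUV39H1, a histone methyltransferase gene, was at 2305, 2079 and 2307 on those first 3 arrays, against 1527 to 1921 elsewhere. CTBP1 and RBBP7 ranged as widely, 1.51-fold each, without this pattern. CTBP1 was highest on CDK4/6 siRNA 3, at 1379. RBBP7 was at 1938, 2270 and 1878 on the first 3 arrays, with overlap, as it reached 2056 on non-targeting siRNA 2. HDAC1, HDAC3 and SMARCA4 ranged 1.18-fold to 1.22-fold. No test was run on arrays chosen by such values, and the share of all genes that separated these arrays was not counted.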
